A study of Mus musculus with 24 samples.

Results

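The 134 genes described here encode the protein part of the cytosolic ribosome and the factors that start translation on it. They were taken by gene symbol from FPKM tables of mouse bone marrow-derived macrophages (BMDMs), as the labels and the study's methods call the cells, although the growth label names colons as their source and the tissue label bone. Symbols of the form Rpl or Rps and a number (with a, l or x allowed at the end), Rplp0 to Rplp2 and Rpsa gave 81 ribosomal protein genes, and symbols beginning Eif1 to Eif6 gave 53 initiation factor genes, without the X- and Y-linked pair of eIF2 gamma genes. The tables listed 18063 genes for M1 cells and 17786 for M2 cells, and all 134 members stood in both. FPKM scales the fragments of a gene to its transcript length and to the mapped fragments of the library. Within each stimulus, a gene was tested when 3 or more of the 12 libraries reached an FPKM of 1, which kept 77 ribosomal protein and 51 initiation factor genes of 10040 genes in M1 and 78 and 52 of 10735 in M2. The series held 24 libraries in 8 groups of 3. BMDMs of 10-week-old C57BL/6 mice, wild-type (WT) or lacking dopamine receptor D5 in the germ line (DRD5-/-, made with CRISPR-Cas9), were left untreated or given dopamine (DA), and every culture was stimulated for 12 h. M1 cells received LPS at 100 ng/ml with IFN-γ at 50 ng/ml, and M2 cells IL-4 and IL-13 at 10 ng/ml each, so that no library came from unstimulated cells. Nothing in the labels says whether the 3 libraries of a group came from separate mice or cultures, so p-values measure the spread between these libraries, which may be technical.

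A ribosome has a large subunit, whose proteins are named Rpl, a small subunit, whose proteins are named Rps, and a stalk of the P proteins Rplp0, Rplp1 and Rplp2 that recruits elongation factors. Initiation begins when eIF4E binds the cap of an mRNA and, with the scaffold eIF4G and the helicase eIF4A, brings in the small subunit carrying eIF1, eIF1A, eIF3, eIF5 and the eIF2 complex with the initiator tRNA. Cells restrain these steps through 4E-binding proteins, which hold eIF4E, and through eIF2 kinases, which block the recycling of eIF2 by its exchange factor eIF2B. Many mRNAs of ribosomal proteins begin with a C and a run of pyrimidines, the 5' terminal oligopyrimidine tract, through which mTORC1 controls their translation.

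Replicates of a group correlated at 0.997 to 0.998 across log2(FPKM + 1) values. The FPKM of all genes summed to between 476187 and 494459 per library in M1 and between 482310 and 503799 in M2. Macrophage markers were high in every library, all 10 of 10 reaching 1 FPKM, with summed levels of 7592 to 8540 FPKM in M1 and 8829 to 11781 in M2. The 7 M1 state markers summed to 4521 to 5040 FPKM in M1 libraries and 13.6 to 23.8 in M2 libraries. Drd5 was not among the genes listed for M1, and no dopamine receptor reached 1 FPKM in M2, so the knockout could not be checked on its own gene. Read depth is unknown, since low FPKM values did not step in whole reads.

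To show what stands at the starts of these genes, the annotated transcription starts of RefSeq (build GRCm38.p6) were searched, each in a 300-base promoter of 250 bases before the start and 50 from it on. Of the tested members, 99 had a promoter in the table, 58 ribosomal protein and 41 initiation factor genes. A tract of a C followed by at least 5 bases that were each C or T, beginning within 15 bases of the start on the transcribed strand, stood in 34 of the 58 ribosomal protein promoters (58.6%), in 8 of the 41 initiation factor promoters (19.5%) in 26.8% of the promoters of tested genes and in 26.3% of all 27025 promoters. The letters CTTCCG, read on both strands (CGGAAG on the other), stood in 70.7% of the ribosomal protein and 51.2% of the initiation factor promoters, against 34.0% of the promoters of tested genes and 17.2% of all. TATAAA on either strand (TTTATA on the other) was in 8.62% and 7.32%, against 6.88% of the promoters of tested genes and 14.2% of all. Below are the 40 bases before the start and the 20 from it on for 8 members, a selection of those named later for their changes with DA that have a single annotated start, with the longest tract in capitals where there is one. They cover chr17:33955646-33955705 (Rps18, minus strand), chr7:45718031-45718090 (Rpl18, plus), chr17:24720023-24720082 (Rps2, plus), chrX:74270776-74270835 (Rpl10, plus), chr15:79075183-79075242 (Eif3l, plus), chr9:20898571-20898630 (Eif3g, minus), chr2:154892887-154892946 (Eif2s2, minus) and chr5:143817752-143817811 (Eif2ak1, plus).
Rps18: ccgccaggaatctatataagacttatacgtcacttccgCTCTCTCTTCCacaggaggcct
Rpl18: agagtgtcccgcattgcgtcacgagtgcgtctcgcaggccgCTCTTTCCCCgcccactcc
Rps2: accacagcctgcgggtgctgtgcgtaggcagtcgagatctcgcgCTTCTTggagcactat
Rpl10: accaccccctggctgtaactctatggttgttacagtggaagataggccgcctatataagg
Eif3l: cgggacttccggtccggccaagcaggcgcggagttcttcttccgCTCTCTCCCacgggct
Eif3g: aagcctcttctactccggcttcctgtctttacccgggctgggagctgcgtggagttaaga
Eif2s2: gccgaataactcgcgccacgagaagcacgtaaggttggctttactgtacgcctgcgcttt
Eif2ak1: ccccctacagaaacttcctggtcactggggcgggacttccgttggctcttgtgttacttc
The tract began 2 bases before the start of Rps18, at base 2 of Rpl18 and at base 5 of Rps2 and Eif3l. In Eif3l a shorter run that begins 5 bases before the start also meets the definition. Rpl10, Eif3g, Eif2s2 and Eif2ak1 showed no such tract in this window, and neither did Rpl36a and Rpsa, whose sequences are not printed.

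Averaged over the 12 libraries of a stimulus, the median ribosomal protein gene stood at 194 FPKM in M1 and 508 FPKM in M2, and the median initiation factor gene at 29.6 and 42.6 FPKM. Highest in M1 were Rps24 (686 FPKM), Rpl41 (618 FPKM) and Rpl10 (555 FPKM), and in M2 Rplp1 (1545 FPKM), Rpl10 (1424 FPKM) and Rps26 (1120.3 FPKM). Among initiation factors Eif5a, which helps the ribosome past difficult peptide bonds, and Eif4a1, the helicase, led in both stimuli, with 265 and 225 FPKM in M1 and 737 and 593 FPKM in M2. The third was Eif4ebp1 in M1 (225 FPKM) and Eif1, a start codon selection factor, in M2 (235 FPKM). The tissue-restricted copies Rpl3l and Rpl10l, the copy Rpl32l and the oocyte cap-binding gene Eif4e1b stayed under the filter in both stimuli, Rpl10l being listed at 0 in every M1 library. Rpl39l (0.34 to 0.99 FPKM) and Eif3j2 (0 to 0.90 FPKM) stayed under it in M1 alone.

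Levels between members need caution. Rps6, a small subunit protein that every ribosome holds, was listed at only 4.64 FPKM on average in M1 and 18.9 in M2, and Rps15a at 15.7 and 34.5 FPKM, although both proteins are part of every small subunit. The mouse annotation (GENCODE M21) names 297 pseudogenes after 59 of the 81 ribosomal protein genes and 3 after 1 initiation factor gene. Each stimulus listed 2 pseudogenes named after these families, with a summed FPKM of at most 44.7 per library in M1 and 374 in M2. How reads matching several genes were counted is not given in the sources used here. The same holds for the near-identical pair Eif3j1 and Eif3j2.

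The stimuli were set side by side without a test, since their libraries were fitted apart and their tables list different genes. M1 and M2 libraries may also have been processed apart, which cannot be told apart from the stimulus here. Every one of the 77 ribosomal protein genes tested in both stimuli was higher in all 3 untreated WT libraries of M2 than in all 3 of M1. Of all genes tested in both, 61.4% were. The ratio of M2 to M1 had a median of 2.58 and ran from 1.32 for Rpl24 to 4.17 for Rpl10a, against a median of 1.31 over all genes. Of the initiation factors, 40 of 51 (78.4%) were higher and 8 lower in every M2 library, with a median ratio of 1.48. The share of all genes lower in every M2 library was not counted, so the 8 cannot be set against it. Among the 8 lower ones were Eif4ebp1, the 4E-binding protein, with 227, 220.5 and 222 FPKM in M1 against 42.2, 38.8 and 36.8 in M2 (5.69 times higher in M1), and Eif2ak2, the kinase activated by double-stranded RNA and induced by interferon, with 43.9, 45.7 and 48.9 FPKM against 11.7, 11.7 and 12.5 (3.86 times higher in M1). Eif2b3, a subunit of the eIF2B exchange factor, went furthest the other way, with a mean of 1.23 FPKM in M1 and 7.55 in M2.

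**Figure D1:**
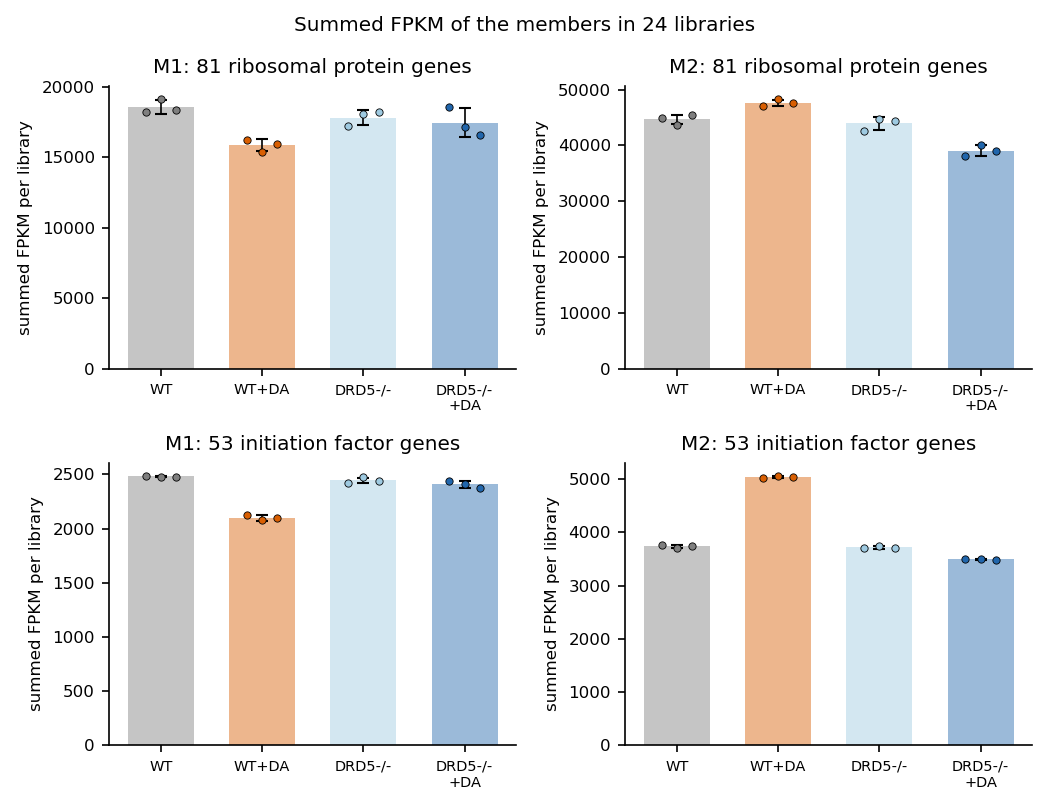
Summed FPKM of the 81 ribosomal protein genes (top) and 53 initiation factor genes (bottom) in each of the 24 libraries, M1 left and M2 right; points are libraries, bars are means of 3 and error bars SD. In M1 the WT+DA libraries lie below the untreated WT libraries in both subgroups, and in M2 the initiation factors of the WT+DA libraries stand apart at 5021 to 5062 FPKM.

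The first comparison asked how DA altered these genes in WT M1 cells. Both subgroups were lower with DA. The summed FPKM of the ribosomal protein genes was 18221, 19113 and 18377 in the untreated WT libraries and 16222, 15381 and 15977 with DA, a fall of 14.6% in the means with no overlap between the groups. The sum of the initiation factors stood at 2486, 2480 and 2478 FPKM untreated and at 2122, 2075 and 2095 with DA (fell by 15.5%). Because FPKM is a share of the library, less RNA per cell cannot be told apart from fewer cells of a type here or below.

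Past the threshold used throughout (limma on log2(FPKM + 1), Benjamini-Hochberg adjusted p under 0.001 and at least 1.2-fold), 24 of 77 ribosomal protein genes fell with DA in WT M1 cells and 0 rose, where 9.60% of all tested genes fell and 4.73% rose. Of the 24, 15 belong to the large and 9 to the small subunit, and none to the stalk. The median over the 77 was -0.24 on the log2 scale against -0.07 over all tested genes, and 76 of 77 differences were below 0. Every DA library was below every untreated library for 69 of 77 genes, and above for 1, where 39.0% of all tested genes lay below and 17.5% above. The median lay close to the 1.2-fold limit of 0.263, and the number called varied with the scaling. Called were 10 genes with median-of-ratios scaling, 17 with quantile normalization and 7 once a trend of the differences with transcript length and GC content was removed. With median-of-ratios scaling the median of the 77 was -0.16, against -0.0026 over all tested genes. With the trend removed it was -0.12, against -0.0019.

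The strongest falls among ribosomal proteins were those of Rps27l, Rpl11, Rps18, Rpl3, Rpl18 and Rpl10a. Rps27l, a p53-induced relative of Rps27, had 35.5, 39.0 and 37.1 FPKM untreated and 29.5, 24.7 and 27.1 with DA (log2 difference -0.44 ± 0.06, SE; adjusted p = 5.16e-05). Rpl11, which can leave the ribosome and bind Mdm2, went from 231, 240.3 and 219.8 FPKM to 175, 172 and 164 (-0.43 ± 0.05, adjusted p = 4.23e-06). For neither gene did the groups overlap. Rpl3, near the catalytic centre of the large subunit, had 132, 138 and 137 FPKM untreated and 104, 103 and 98.0 with DA (-0.42 ± 0.04, adjusted p = 5.24e-07), and Rpl18 had 184, 193 and 178 FPKM against 138, 135 and 143 (-0.41 ± 0.04, adjusted p = 4.27e-07). Rps18, at the head of the small subunit, went from 157, 179 and 165 FPKM to 124, 128 and 122 (-0.42 ± 0.06, adjusted p = 3.41e-05). Rpl10a completed the 6, with a mean of 95.9 ± 1.30 FPKM (SD, n = 3) untreated and 72.4 ± 0.40 with DA.

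The other 53 ribosomal protein genes did not pass. Rplp0, the stalk base and a common reference gene for PCR, had 448, 452 and 425 FPKM untreated and 410.4, 420.3 and 423 with DA (-0.08 ± 0.03, adjusted p = 0.0506). Rpl39 was the one member with a difference above 0, at 145, 145 and 144 FPKM untreated and 154, 147 and 145 with DA (0.04 ± 0.07, adjusted p = 0.643). Rps27, the relative of Rps27l, ranged from 192 to 312 FPKM in untreated and from 154 to 251 in DA libraries, so that its difference of -0.24 had an SE of 0.18. Rps6 was at 4.58 to 5.33 FPKM untreated and 4.38 to 4.79 with DA (-0.09 ± 0.12, adjusted p = 0.577). Rpl22, a protein with an interchangeable paralog, had a difference of -0.21 ± 0.05 (adjusted p = 0.0045).

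**Figure D2:**
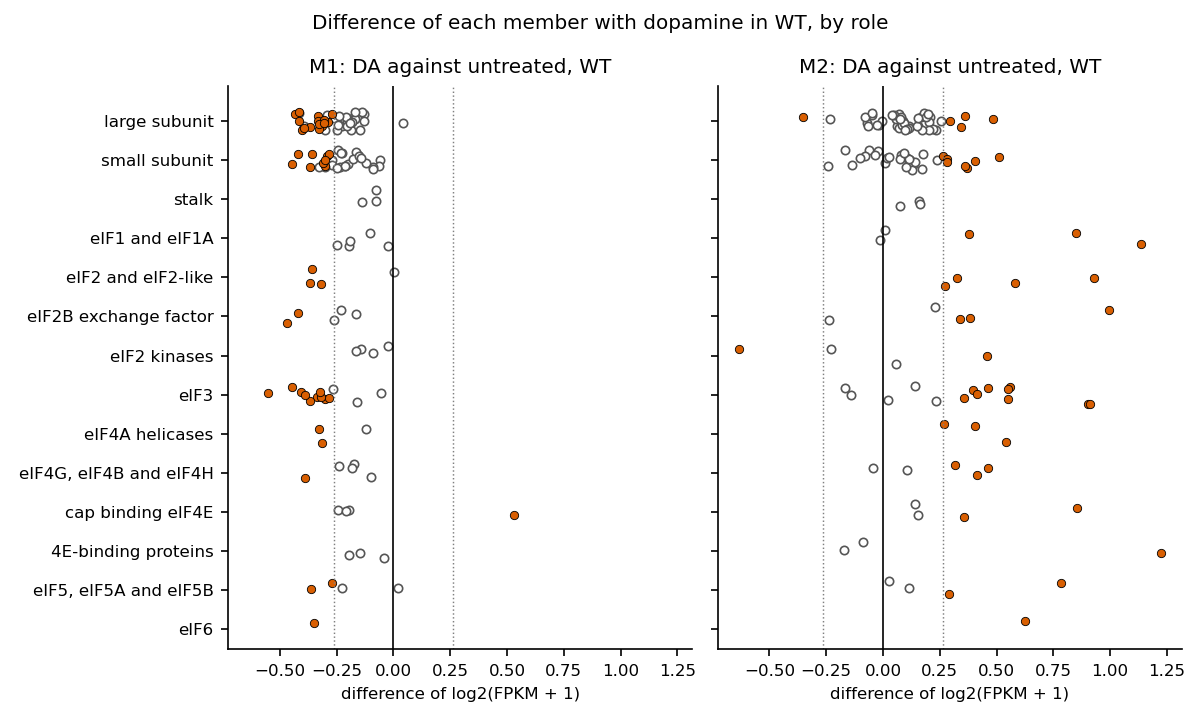
Difference of log2(FPKM + 1) between DA-treated and untreated WT cells for every tested member, by role, in M1 (left) and M2 (right); filled points passed adjusted p under 0.001 and 1.2-fold, open points did not, and dotted lines mark 1.2-fold. M1 points lie mostly left of 0, 10 of 13 eIF3 genes being filled, and M2 initiation factors spread to the right as far as 1.22 for Eif4ebp1.

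Initiation factors fell with DA in M1 too, 21 of 51 genes passing the threshold downward and 1 upward, where 9.60% of all tested genes fell and 4.73% rose. Their median was -0.24 against -0.07 over all tested genes. For 43 of 51 the DA libraries lay wholly below the untreated ones and for 1 above, against 39.0% and 17.5% of all tested genes. The number that fell was 12 with median-of-ratios scaling, 13 with quantile normalization and 11 with the length and GC trend removed. Under these settings their median was -0.17, -0.18 and -0.17, against -0.0026, -0.0082 and -0.0019 over all tested genes. The fall was called most often in eIF3, the large complex that holds the small subunit and mRNA together, where 10 of 13 genes passed. Eif3g dropped furthest, from 19.9, 20.7 and 19.1 FPKM to 13.5, 12.8 and 13.5 (-0.55 ± 0.05, adjusted p = 2.47e-07). Eif3b, a core scaffold of the complex, had 45.8, 46.4 and 45.1 FPKM untreated and 33.7, 32.5 and 33.7 with DA (-0.45 ± 0.03, adjusted p = 1.97e-08). Eif3d, which can itself bind a cap, fell from a mean of 40.7 to 30.4 FPKM and Eif3l from 33.0 to 24.99, both without overlap. Eif3a, the largest subunit, was the exception, at 22.4 to 23.6 FPKM untreated and 21.9 to 22.5 with DA (-0.05 ± 0.05, adjusted p = 0.39), a value that turned above 0 with median-of-ratios scaling (0.02) and quantile normalization (0.01).

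The eIF2 complex and its exchange factor followed. Eif2s1, the subunit that eIF2 kinases phosphorylate, had 18.5, 18.4 and 18.5 FPKM untreated and 14.9, 14.5 and 14.4 with DA (-0.32 ± 0.04, adjusted p = 6.77e-06), and came short of 1.2-fold with median-of-ratios scaling (-0.25) and quantile normalization (-0.26). In all, 3 of 4 genes of eIF2 and its relatives and 2 of 5 of eIF2B passed. Eif2b1 had 7.68, 9.04 and 7.58 FPKM untreated and 5.29, 5.33 and 6.09 with DA (-0.47 ± 0.08, adjusted p = 0.000265), and Eif2b4 went from a mean of 7.08 to 5.05 FPKM. Both of these low genes lost the call in 3 of the fits that left out 1 library, with differences of -0.40 (without WT replicate 2) to -0.44 (without WT+DA replicate 1 or 2) for Eif2b1 and of -0.36 (without WT+DA replicate 1) to -0.42 (without WT replicate 1; -0.41 without WT+DA replicate 3) for Eif2b4. Both also lost it without a filter and with the length and GC trend removed (-0.38 and -0.32), and Eif2b1 with median-of-ratios scaling (-0.40) and quantile normalization (-0.41). None of the 4 eIF2 kinases passed, Eif2ak1 coming nearest with -0.14 ± 0.03 (adjusted p = 0.000943, under 1.2-fold).

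Among the cap-binding steps, the helicase gene Eif4a1 fell from 244, 245 and 249 FPKM to 199, 199 and 195 (-0.31 ± 0.02, adjusted p = 1.13e-07), and Eif4g2, an eIF4G relative that does not bind eIF4E, fell from a mean of 104 to 79.5 FPKM (-0.39 ± 0.04, adjusted p = 1.1e-06). Eif4a1 was past 1.2-fold neither with median-of-ratios scaling nor with the length and GC trend removed. Eif4e itself had 46.6, 45.6 and 50.1 FPKM untreated and 42.2, 40.7 and 40.9 with DA (-0.20 ± 0.04, adjusted p = 0.000577), under the fold limit. The single riser was Eif4e3, an atypical cap-binding relative, with 10.1, 9.41 and 9.89 FPKM untreated against 14.8, 15.3 and 13.8 with DA (0.53 ± 0.04, adjusted p = 2.78e-07). Outside the cap-binding steps, Eif5a fell from 284, 279.9 and 279 FPKM to 217, 218 and 221 (-0.36 ± 0.03, adjusted p = 8.8e-07). Eif6, which keeps free large subunits from joining, fell from 45.7, 45.5 and 46.0 to 35.4, 34.7 and 36.8 (-0.35 ± 0.04, adjusted p = 1.77e-06). Both lost the fold limit once the length and GC trend was removed. The 4E-binding proteins Eif4ebp1 (-0.15), Eif4ebp2 (-0.04) and Eif4ebp3 (-0.20) did not pass. Beside these changes, the summed level of the 10 macrophage markers was 7783 to 7917 FPKM in untreated and 8453 to 8540 in DA-treated WT M1 libraries. The 8 neutrophil markers summed to 44.7 to 56.6 and 63.7 to 83.1 FPKM, with Elane at 0 throughout. Their part in the result was not tested.

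In DRD5-/- M1 cells no member passed, and neither did any of the 10040 tested genes (0%). At an unadjusted p under 0.05 stood 4 of 77 ribosomal protein and 5 of 51 initiation factor genes, of 569 genes in all (limma). The median difference with DA was -0.04 for ribosomal proteins and -0.02 for initiation factors. The DA libraries lay wholly above or below the untreated ones for 0 and 2 ribosomal protein and 1 and 4 initiation factor genes, where 4.07% and 4.65% of all tested genes showed this. The summed ribosomal protein FPKM was 17199, 18069 and 18212 untreated and 18588, 17181 and 16609 with DA, overlapping groups that differed by 2.06% in their means. The interaction term, the DA effect in WT minus that in DRD5-/-, passed below 0 for 10 ribosomal protein genes and above 0 for none, against 5.18% and 3.20% of all tested genes, and for 9 initiation factors below and 1 above 0. Rpl11 (-0.41 ± 0.07, adjusted p = 0.000339), Rpl18 (-0.37 ± 0.05, adjusted p = 8.74e-05), Eif3b (-0.43 ± 0.04, adjusted p = 2.79e-06) and Eif3g (-0.44 ± 0.06, adjusted p = 0.000153) were among them, and Eif4e3 was the one above 0 (0.51 ± 0.06, adjusted p = 3.17e-05). The ribosomal protein count was 6 without untreated WT replicate 1 or 2 or without DRD5-/-+DA replicate 1, and 1 with median-of-ratios scaling.

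Between untreated M1 cells of the genotypes, past the threshold were 2 ribosomal protein genes, both lower in DRD5-/- cells, where 0.209% of tested genes were lower and 0.727% higher, and no initiation factor. At an unadjusted p under 0.05 (limma) stood 21 of 51 initiation factors and 2557 of all 10040 tested genes. Every DRD5-/- library lay below every WT library for 29 of 77 ribosomal protein genes and above for 9, against 17.2% and 13.8% of all tested genes. One of them, Rpl19, had 493, 508 and 481 FPKM in WT and 407, 396 and 428 in DRD5-/- libraries (-0.27 ± 0.04, adjusted p = 0.000234), close to the fold limit. Its call was lost without WT replicate 1 (-0.27) or 2 (-0.25), without DRD5-/- replicate 1 (-0.26) or 2 (-0.24), and with the replicate number as a block (adjusted p = 0.00101), and with median-of-ratios scaling (-0.26), without a filter, with the compared groups alone and without the intensity trend. Rps27 differed by more, with 192, 259 and 312 FPKM against 148, 160.1 and 163, but its spread in WT left it at an adjusted p of 0.0335 (-0.67 ± 0.18). In the same libraries the 8 neutrophil markers summed to 44.7 to 56.6 FPKM in WT and 14.7 to 18.2 in DRD5-/-, with Elane at 0, and their part in the result was not tested.

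In WT M2 cells most initiation factors rose with DA. Past the threshold, 32 of 52 rose and 1 fell, where 25.9% of all tested genes rose and 20.4% fell. The median over the 52 was 0.35 against 0.03 over all tested genes. Summed, they stood at 3766, 3708 and 3750.2 FPKM untreated and at 5021, 5062 and 5044 with DA, a rise of 34.8%, and 31.5% without the 5 members of highest FPKM. For 39 of 52 every DA library was above every untreated one and for 6 below, as for 41.5% and 34.5% of all tested genes.

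The largest rise was that of Eif4ebp1 (chr8:27260329-27276674, plus strand), from 42.2, 38.8 and 36.8 FPKM to 92.7, 90.7 and 95.3 (1.22 ± 0.05, adjusted p = 5.93e-11). Its partner Eif4e (chr3:138526179-138559696, plus strand) rose from 52.4, 51.9 and 52.3 FPKM to 95.7, 93.9 and 96.3 (0.86 ± 0.03, adjusted p = 5.19e-12). The other two 4E-binding proteins did not pass, Eif4ebp2 having 32.4, 32.5 and 30.7 FPKM untreated and 30.0, 29.7 and 30.1 with DA (-0.09 ± 0.03, adjusted p = 0.0122). Of the other parts of the cap-binding complex, Eif4a1 rose from 538, 520.3 and 542 FPKM to 772, 773 and 787 (0.54 ± 0.02, adjusted p = 1.81e-11) and the scaffold Eif4g1 from 83.6, 83.7 and 86.1 to 103, 107 and 107 (0.32 ± 0.03, adjusted p = 5.83e-08). Eif4e3 was higher here too (0.35 ± 0.05, adjusted p = 2e-05), though not past 1.2-fold with the length and GC trend removed (0.24). The second helicase gene Eif4a2 just passed (0.27 ± 0.04) and lost the call without untreated WT replicate 1 (0.25) or without WT+DA replicate 1 (0.25) or 2 (0.26), and with median-of-ratios scaling (0.23), quantile normalization (0.22) and the length and GC trend removed (0.17).

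Among the factors that carry and position the initiator tRNA, all 4 tested genes of eIF2 and its relatives rose. Eif2s2, the beta subunit of eIF2, went from 39.2, 39.7 and 42.2 FPKM to 75.9, 79.9 and 77.5 (0.93 ± 0.03, adjusted p = 7.25e-12), and Eif2s1 from 29.5, 28.8 and 31.9 to 44.6, 47.0 and 44.8 (0.58 ± 0.04, adjusted p = 3.14e-09). Eif2b3 went from 7.41, 7.24 and 8.0 FPKM to 15.7, 16.8 and 15.7 (0.995 ± 0.06, adjusted p = 7.86e-10), one of 3 eIF2B genes of 5 that rose, while Eif2b4 was lower in every DA library (-0.24). Eif1ad, named for its eIF1A-like domain, was the second largest riser, from 9.51, 9.93 and 9.95 FPKM to 21.9, 23.9 and 22.2 (1.13 ± 0.06, adjusted p = 1.77e-10). Eif1 did not pass, at 241, 225 and 237 FPKM untreated and 235, 234 and 228 with DA (-0.01 ± 0.03, adjusted p = 0.651).

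In eIF3, 9 of 14 genes rose. Eif3j1, the loosely bound subunit, rose from 25.4, 26.6 and 28.8 FPKM to 51.0, 51.1 and 51.8 (0.90 ± 0.04, adjusted p = 6.47e-11). Its near-copy Eif3j2 had 0.46 to 0.79 FPKM untreated and 1.08 to 2.61 with DA (0.91 ± 0.20, adjusted p = 0.00093), a call lost without any one of 10 of the 12 libraries (0.77 to 1.003) and with a pseudocount of 0.1, no filter, median-of-ratios scaling, the compared groups alone, no intensity trend or the length and GC trend removed (0.79 to 1.59). Eif3b rose from 94.6, 92.9 and 98.0 FPKM to 141, 142 and 137 (0.55 ± 0.03, adjusted p = 1.43e-10). Eif3f and Eif3h were lower in every DA library but under the limit. Eif5a, the member of highest FPKM in its subgroup, went from 635, 639.8 and 602 FPKM to 1076, 1066 and 1092 (0.79 ± 0.02, adjusted p = 1.18e-12), and its rare relative Eif5a2 had 2.31 to 2.38 untreated and 2.5 to 2.8 with DA (0.11 ± 0.06, adjusted p = 0.106). Eif6 rose from 39.7, 38.3 and 34.7 to 57.8, 59.0 and 58.5 FPKM (0.63 ± 0.04, adjusted p = 5.78e-09).

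The eIF2 kinases went different ways. Eif2ak1, which senses low heme and mitochondrial stress, was the only initiation factor gene that fell past the threshold, from 41.5, 41.8 and 38.1 FPKM to 27.7, 24.8 and 24.6 (-0.63 ± 0.05, adjusted p = 1.34e-08). Eif2ak4, which senses uncharged tRNA, rose from 3.55, 3.56 and 3.48 FPKM to 4.91, 5.47 and 5.27 (0.46 ± 0.05, adjusted p = 1.07e-06). Eif2ak3, the kinase of the endoplasmic reticulum, was lower in every DA library without passing the fold limit (-0.23 ± 0.05, adjusted p = 0.000382), and Eif2ak2 differed by 0.06 ± 0.04 (adjusted p = 0.24).

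**Figure D3:**
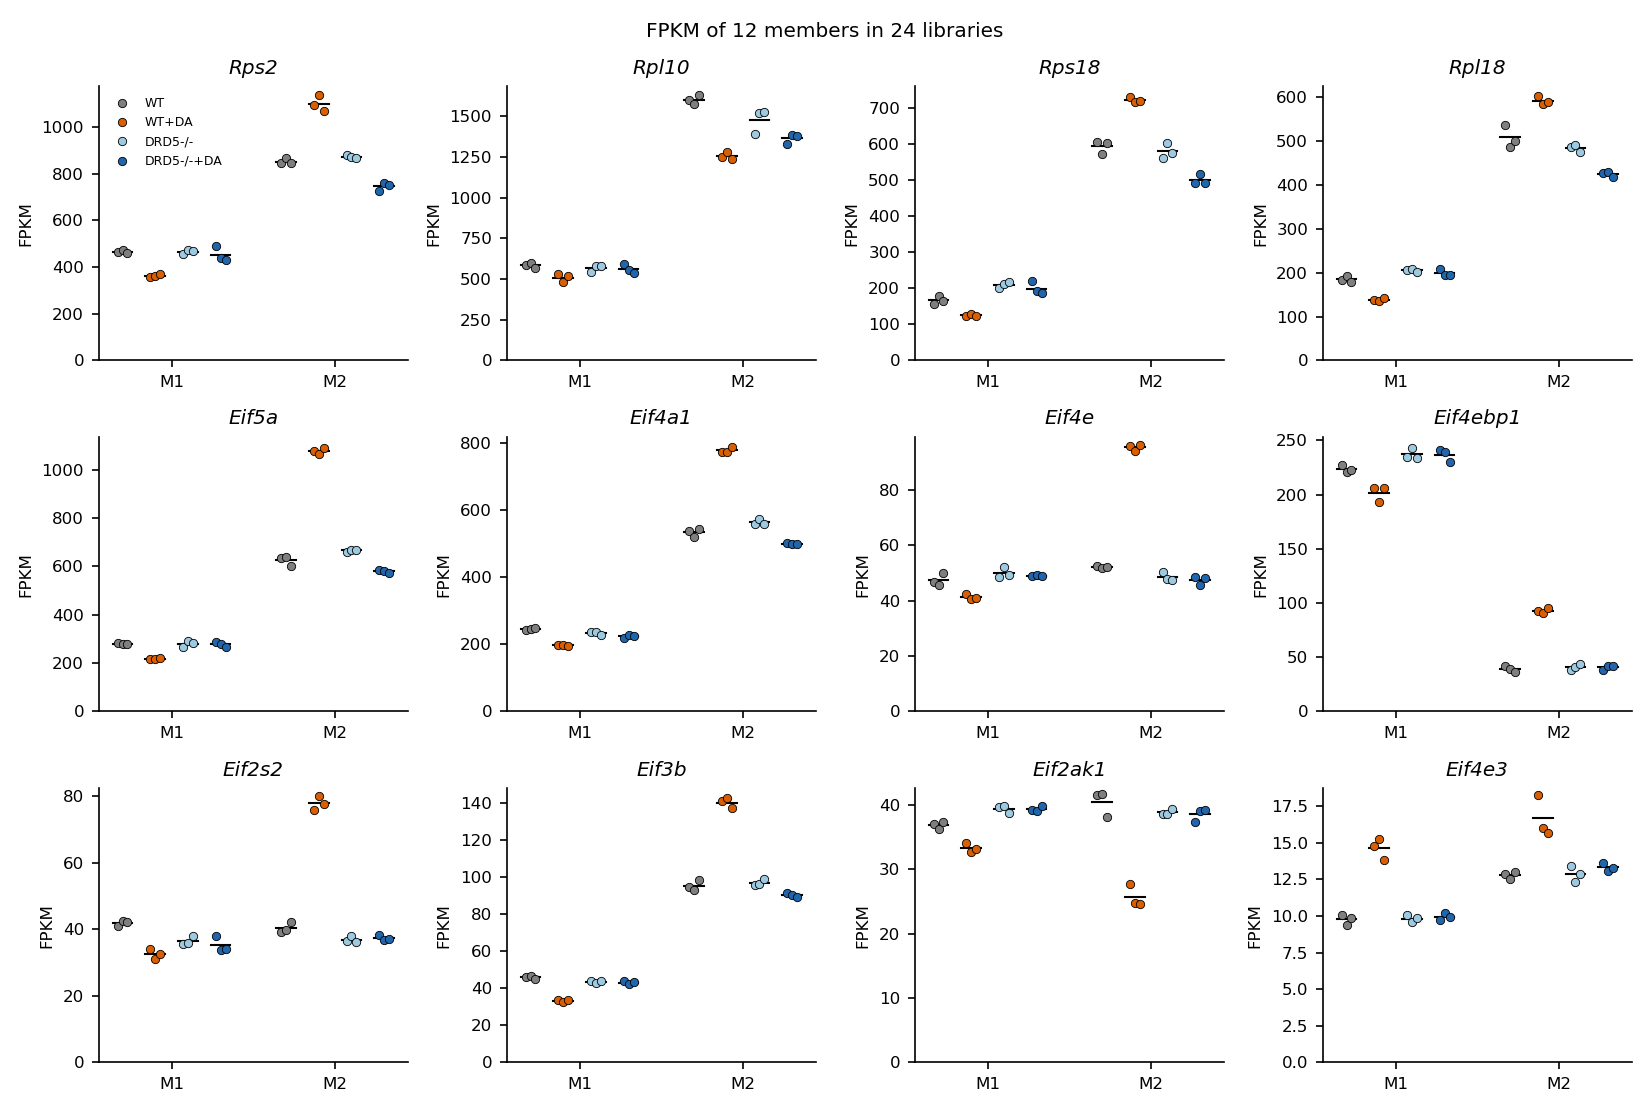
FPKM of 12 members in each of the 24 libraries, M1 left and M2 right in each panel, points coloured by group, and black lines marking group means. Eif4e, Eif5a, Eif4a1 and Eif2s2 show the M2 WT+DA libraries above all other M2 libraries, and Rpl10 and Eif2ak1 show them below.

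Of the ribosomal protein genes, 11 of 78 (14.1%) rose past the threshold with DA in WT M2 cells and 1 fell, shares that lie under the 25.9% and 20.4% of all tested genes. Median-of-ratios scaling gave 6 rising and 3 falling genes, and quantile normalization 8 and 2. The median difference of the 78 was 0.10. Of them, 45 were higher and 7 lower in every DA library than in every untreated one, where 41.5% of all tested genes were higher and 34.5% lower. The sum rose by 6.56%, from 44934, 43723 and 45401 FPKM to 47017, 48252 and 47578, without overlap. Rps27l rose furthest, from 79.5, 77.7 and 86.8 FPKM to 109.6, 124 and 115 (0.51 ± 0.05, adjusted p = 1.58e-07). Rps2, at the mRNA entry of the small subunit, had 844, 865 and 844 FPKM against 1094, 1136 and 1066 (0.37 ± 0.03, adjusted p = 1.08e-08), and Rpsa, which is also known as the laminin receptor precursor, had 451, 449.5 and 475.7 against 579, 592 and 595 (0.36 ± 0.03, adjusted p = 9.89e-09). Rpl36a rose likewise (0.36 ± 0.04, adjusted p = 1.74e-06). Rpl36, with a wider spread, had 231, 185 and 186 FPKM untreated and 259, 292 and 289.6 with DA (0.49 ± 0.10, adjusted p = 0.000479), and lost the call without WT replicate 2 (0.43) or 3 (0.43) or without WT+DA replicate 2 (0.46) or 3 (0.46), with median-of-ratios scaling (0.45), without a filter and without the intensity trend.

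Rpl10, needed for the last step of large subunit maturation, was the exception. It was lower in every DA library, with 1599, 1575 and 1628 FPKM untreated and 1251, 1279 and 1234 with DA (-0.35 ± 0.03, adjusted p = 2.67e-07). Rps27 moved the same way under the fold limit, from 989, 940.3 and 944 FPKM to 789, 783 and 857 (-0.24 ± 0.04, adjusted p = 0.000167), and so did Rpl37a, from a mean of 395 to 336 FPKM. Rplp0 (0.16 ± 0.02, adjusted p = 3.23e-05) and Rpl3 (0.20 ± 0.03, adjusted p = 2.83e-05) were above their untreated level in every DA library but under 1.2-fold. Beside the M2 changes, the macrophage markers summed to 11244 to 11409 FPKM in untreated and 8829 to 8884 in DA-treated WT libraries. Lyz2 had the widest range of these markers over all M2 libraries, 4733 to 7337 FPKM, followed by Cd68 with 2137 to 2470. These ranges cover all M2 groups, so they do not show which markers make up the lower sum with DA in WT. The 7 M2 state markers summed to 490 to 505 FPKM in untreated and 1232 to 1250 in DA-treated WT libraries. The 8 erythroid and megakaryocyte markers summed to 6.04 to 8.27 and 102 to 106 FPKM, through Pf4, and the 4 globin genes on the list stayed under 1 FPKM. Their part in the result was not tested.

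In DRD5-/- M2 cells no ribosomal protein gene passed the threshold with DA, where 3.37% of all tested genes rose and 0.652% fell. No difference reached 1.2-fold. An adjusted p under 0.001 was found for 30 of 78 ribosomal protein genes and 858 of all 10735 tested genes, and an unadjusted p under 0.05 for 69 and 4570 (limma). Every DA library was below every untreated library for 64 of 78 genes, against 19.6% of all tested genes, and above for none, against 25.6%. The median was -0.17, with 76 of 78 differences below 0, against 0.01 over all tested genes. The median shrank to -0.08 with quantile normalization and to -0.06 with the length and GC trend removed. Rps2 had 881, 870.4 and 866 FPKM untreated and 726, 761 and 750.3 with DA (-0.23 ± 0.03, adjusted p = 3.34e-05). Rpl41, the shortest of these proteins, had 1134, 1176 and 1192 FPKM against 942, 996 and 1006 (-0.25 ± 0.03, adjusted p = 3.63e-05). The sum fell by 11.1%, from 42652, 44810.1 and 44375 FPKM to 38038, 40095 and 39048, without overlap. The FPKM of all genes also summed lower in these DA libraries, 482310 to 487772 against 498900 to 503799, and as a share of that sum the fall was 8.06%.

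Initiation factors of DRD5-/- M2 cells had a median of -0.04, with 20 differences above and 32 below 0, and none passed the threshold. Of the 52, 9 were higher and 16 lower in every DA library, where 25.6% of all tested genes were higher and 19.6% lower. At an unadjusted p under 0.05 (limma) stood 24 of 52, and 4570 of all 10735 tested genes. Eif4ebp1 had 38.3, 41.0 and 43.7 FPKM untreated and 38.3, 42.0 and 41.5 with DA (-0.01 ± 0.05, adjusted p = 0.885), and Eif4e had 50.3, 48.0 and 47.5 against 48.7, 45.7 and 48.3 (-0.03 ± 0.03, adjusted p = 0.456). Eif5a (-0.20 ± 0.02, adjusted p = 4.49e-05) and Eif4a1 (-0.17 ± 0.02, adjusted p = 6.11e-05) were lower in each DA library, under the fold limit. Eif4ebp2 was higher in each, from 30.2, 30.2 and 30.4 FPKM to 36.4, 35.5 and 35.9 (0.24 ± 0.03, adjusted p = 3.65e-05).

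**Figure D4:**
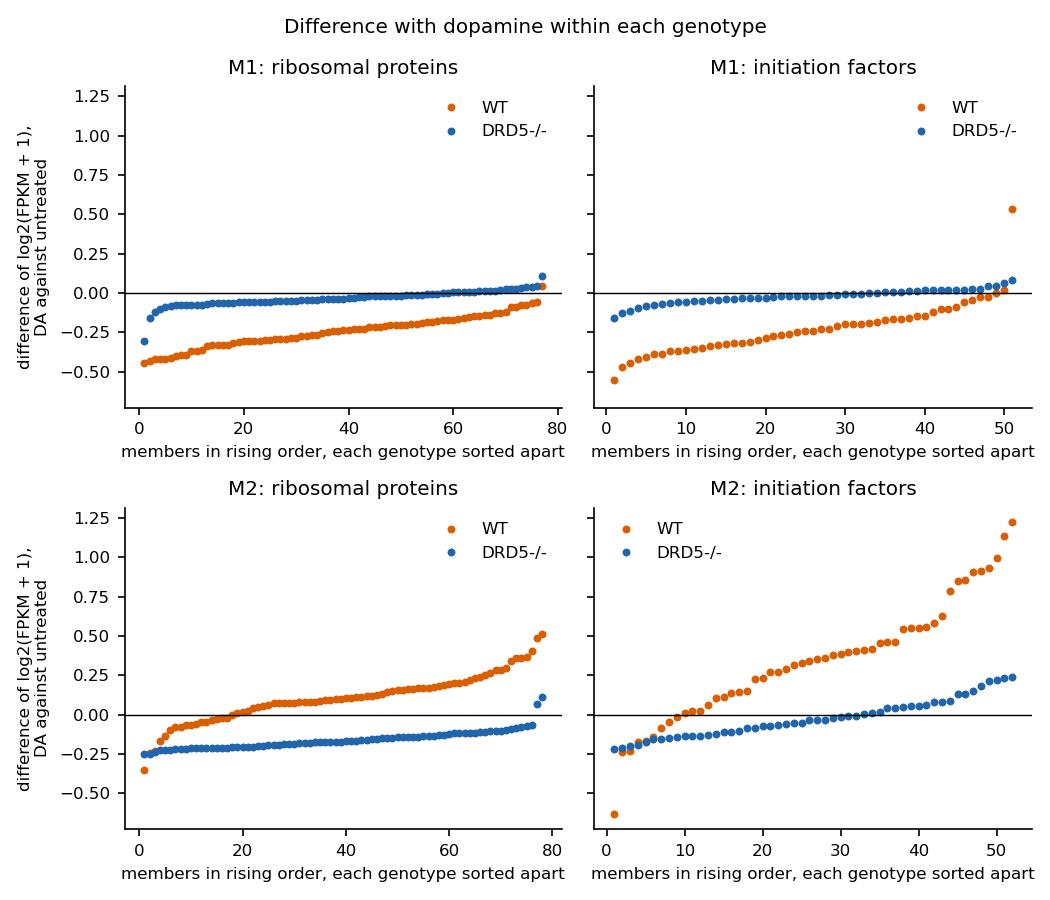
Difference of log2(FPKM + 1) with DA within WT (orange) and within DRD5-/- (blue) for all tested members, each genotype sorted apart, so that a position does not mark the same gene in both colours; M1 above, M2 below. The M2 ribosomal proteins have a median of 0.10 in WT and -0.17 in DRD5-/-, and in M1 the WT points lie below the DRD5-/- points along the order, except the highest WT initiation factor, Eif4e3, at 0.53.

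The interaction term in M2 was above 0 past the threshold for 39 of 78 ribosomal protein genes and below 0 for none, against 22.8% and 20.4% of all tested genes, and for 24 initiation factors above and 2 below 0 of 52. Its median over the ribosomal proteins was 0.29 (0.01 over all genes). For these genes the term joins a small difference upward in WT with a small one downward in DRD5-/- cells. Rps2 (0.59 ± 0.04, adjusted p = 4.46e-09) and Rps27l (0.69 ± 0.06, adjusted p = 4.19e-07) had high values among them. The count depended on the scaling, with 16 above and 1 below 0 after quantile normalization and 13 and 2 with the length and GC trend removed, where the median was 0.12. Of the initiation factors, Eif1ad (1.27 ± 0.08, adjusted p = 4.15e-09) and Eif4ebp1 (1.24 ± 0.08, adjusted p = 4.21e-09) led, and Eif2ak1 (-0.62 ± 0.06, adjusted p = 1.01e-06) and Eif4ebp2 (-0.33 ± 0.04, adjusted p = 5.01e-06) were below 0.

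Without DA, 3 members differed between DRD5-/- and WT M2 cells, all lower in DRD5-/-, where 4.15% of tested genes were lower and 1.37% higher. Every DRD5-/- library lay below every WT library for 15 ribosomal protein and 18 initiation factor genes and above for 2 and 7, where 27.6% of all tested genes lay below and 11.9% above. Eif3e had 92.4, 90.2 and 97.9 FPKM in WT and 77.6, 73.9 and 75.6 in DRD5-/- libraries (-0.30 ± 0.03, adjusted p = 1.13e-05), and lost the fold limit with median-of-ratios scaling (-0.26) and with the length and GC trend removed (-0.24). Eif2ak2 had 11.7, 11.7 and 12.5 FPKM in WT and 9.11, 9.30 and 9.74 in DRD5-/- (-0.32 ± 0.04, adjusted p = 0.000118), a call lost with the compared groups alone (adjusted p = 0.001) and with the length and GC trend removed (-0.25). Rps6 had 20.1, 20.5 and 20.5 FPKM in WT and 17.5, 15.3 and 15.04 in DRD5-/- (-0.34 ± 0.06, adjusted p = 0.000716). It lost its call, with differences of -0.30 to -0.35, when any 1 of 9 of the 12 libraries was left out, all but DRD5-/- replicate 1 and WT+DA replicates 2 and 3, and with both scalings (-0.295 and -0.2965), without a filter, with the compared groups alone and without the intensity trend. In the same libraries the 8 fibroblast and stromal markers summed to 142 to 146 FPKM in WT and 92.1 to 96.1 in DRD5-/-, whose part in the result was not tested.

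Between the stimuli, 7 ribosomal protein genes fell with DA in WT M1 cells and rose in WT M2 cells (7 of the 24 that fell and 7 of the 11 that rose), with Rpl4, Rpl14, Rps2, Rps18, Rps27a and Rps27l among them. Of the 9620 genes tested in both stimuli, 433 did so (4.50%), against 7 of 77 ribosomal protein genes. Among initiation factors 16 of 51 did so, of 21 that fell and 32 that rose, 7 of them in eIF3, with Eif2s1, Eif2s2, Eif4a1, Eif4g2, Eif5a and Eif6 among the rest. None fell in both stimuli, and Eif4e3 rose in both. Rps2, for example, went from 466, 471 and 459 FPKM to 357, 363 and 369 with DA in M1 (-0.36 ± 0.04, adjusted p = 4.23e-06), against its rise in M2 given above. The difference between the stimuli itself was not tested, since the libraries of each stimulus were fitted apart.

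The rest of the translation pathway was read from 6 further lists, to be set against the 9.60% of all tested genes that fell and the 4.73% that rose with DA in WT M1 cells, and the 20.4% and 25.9% in WT M2 cells. In WT M1 cells DA lowered 9 of 15 tested elongation and termination factors and raised none, among them Pelo, which rescues stalled ribosomes (-0.58), Abce1, which recycles ribosomes (-0.55), and Eef1g (-0.51). It lowered 10 of 21 cytosolic aminoacyl-tRNA synthetases, with Vars (-0.46), Farsa (-0.38) and Rars (-0.36) first, 23 of 73 ribosome biogenesis genes (1 rose, Ubtf, at 0.28), 14 of 78 mitochondrial ribosomal proteins, 6 of 28 mTORC1 pathway genes and 1 of 6 ribosomal proteins whose symbols lie outside the rule (Rack1, -0.31). In WT M2 cells 73 of 81 ribosome biogenesis genes rose and none fell, with a median of 0.70, led by the snoRNP proteins Nop58 (1.64), Nop56 (1.46) and Dkc1 (1.34). Of the synthetases 20 of 21 rose (median 0.89), led by Iars (1.44), Yars (1.22) and Aars (1.19). Elongation and termination factors rose in 9 of 16 and fell in none, and mitochondrial ribosomal proteins rose in 42 of 78 and fell in 2, Mrps6 the most (-1.39). On the mTORC1 list 6 of 29 genes rose and 9 of 29 fell, the largest changes being falls of Pdcd4, an inhibitor of eIF4A (-1.16), Sesn1 (-0.98) and Rragd (-0.89), and of the 6 ribosomal proteins outside the rule only Rpl22l1, the paralog of Rpl22, passed, falling (-0.45). With DA in DRD5-/- M1 cells none of these lists had a gene past the threshold, and neither did any other tested gene pass. In DRD5-/- M2 cells they held 5 that fell and none that rose, where 0.652% of all tested genes fell and 3.37% rose. The 5 were 1 of 81 ribosome biogenesis, 1 of 29 mTORC1 and 3 of 78 mitochondrial ribosomal protein genes.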

How the data were processed

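Total RNA of the BMDM cultures was sequenced on a BGISEQ-500. Per the labels and the study's methods, filtered reads were mapped with HISAT2 to the mouse genome, counted and normalised, while the submitters' processing notes name Bowtie2 2.2.5 and GRCm38.p6, a different patch of that build from the one in the study's methods. The authors deposited 1 FPKM table per library, and the counter, the annotation and the treatment of reads matching several genes are not given in the sources used here. Of the values of low genes, 37.0% (M1) and 27.2% (M2) lay within 0.1 of a whole multiple of the lowest one, so no reads were recovered, depth is unknown and no count-based interval is given.

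Per stimulus, genes reaching an FPKM of 1 in 3 or more of the 12 libraries were fitted with limma 3.58.1 in R 4.3.3 (group means, empirical Bayes with an intensity trend) on log2(FPKM + 1), a scale that understates fold changes of low genes. Differences are given ± SE, and every adjusted p is limma's, adjusted by the Benjamini-Hochberg method over all genes tested. A gene was called at an adjusted p under 0.001 and a fold change of at least 1.2. The script was tested on simulated data. Plots were made with Python 3.11.15 and matplotlib 3.10.9, and gene positions are those of GENCODE M21.

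Members and lists were chosen with earlier results of these data known. Named singly were up to 6 members per subgroup and stimulus with the largest rise and fall past the threshold with DA in WT, members called in other comparisons, the 3 of highest and lowest FPKM, and members set by role. Some members that this rule names are not reported here. Rps15a, Rpl24, Rpl37a, Eif3f and Eif3h were named after their values were seen, and the same holds for members listed by name in the comparison of both stimuli. Libraries with the same replicate number did not deviate together (mean correlation of residuals -0.02 in both stimuli, range -0.18 to 0.18), so numbers were not taken as pairs. Alternatives were a pseudocount of 0.1, no filter, 2 scalings, removal of length and GC trends, no intensity trend, the compared groups alone, an adjusted p under 0.05, a replicate block and each library left out in turn.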

Additional observations from a re-analysis of the deposited data

Results flagged for a closer look

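Differences between the genotypes in the response to DA were tested with the interaction term. In M1 it was past the threshold for 10 of 77 ribosomal protein genes, with Rpl11 (-0.41), Rpl18 (-0.37) and Rpl3 (-0.34) among them. The same held for 10 of 51 initiation factors, with Eif3b (-0.43), Eif3d (-0.41), Eif3g (-0.44), Eif3l (-0.39) and Eif4e3 (0.51) among them. Of all tested M1 genes, 5.18% passed below 0 and 3.20% above. In M2 the term was past the threshold for 39 of 78 ribosomal protein genes, with Rpl36a (0.54), Rps2 (0.59), Rps27l (0.69) and Rpsa (0.50) among them. It passed for 26 of 52 initiation factors, 24 above and 2 below 0, with Eif1ad (1.27), Eif2ak1 (-0.62), Eif2b3 (1.05), Eif2s2 (0.91), Eif3j1 (0.89) and Eif4ebp1 (1.24) among them. Of all tested M2 genes, 22.8% passed above 0 and 20.4% below. All values are the DA effect in WT minus that in DRD5-/- on the log2 scale.

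The 7 ribosomal protein genes and 16 initiation factors that fell with DA in WT M1 cells and rose in WT M2 cells moved in opposite directions under the same treatment, and that difference was not tested. Of all 9620 genes tested in both stimuli, 433 (4.50%) did the same.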

How the results depend on the processing

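Over the named members, 1635 values under an alternative kept their direction and their side of the threshold, 76 fell short of it, 8 newly passed it and 21 changed sign, all of the latter differences with DA in WT that had not passed. In M1, median-of-ratios scaling turned Eif1 (0.0502), Eif2ak3 (0.0321), Eif3a (0.0167) and Eif4ebp2 (0.0285) above 0, quantile normalization Eif2ak3 (0.0387), Eif3a (0.011) and Eif4ebp2 (0.0156), and removal of the length and GC trend Eif1 (0.089), Eif2ak3 (0.0354), Eif4ebp2 (0.009), Rplp0 (0.0421) and Rps6 (0.0378). Leaving out 1 library at a time gave -0.0539 to 0.0079 for Eif1, -0.0752 to 0.0144 for Eif2ak3, -0.0711 to 0.0061 for Eif4ebp2 and -0.042 to 0.0961 for Eif5a2. In M2, Eif2ak2 turned below 0 with quantile normalization (-0.0077) and with the trend removed (-0.0176), and leaving out 1 library gave -0.043 to 0.0055 for Eif1 and -0.087 to 0.0127 for Rpl39l. The cause of these changes was not tested.

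In M1, the 24 ribosomal protein genes called with DA in WT became 10 with median-of-ratios scaling (median -0.16) and 7 with the trend removed (median -0.12), and the 22 initiation factors became 13 (-0.17), 14 with quantile normalization (-0.18) and 12 with the trend removed (-0.17). The 10 ribosomal protein genes of the interaction became 3 without a filter, 1 with median-of-ratios scaling (median -0.13), 1 without the intensity trend, 3 with the trend removed (-0.13) and 25 at an adjusted p under 0.05, and ranged from 6 to 12 when 1 library was left out. For the initiation factors the interaction median was -0.15, -0.16 and -0.18 under these scalings, and 20 genes passed at 0.05. The 2 ribosomal protein genes that differed between the genotypes became 1 without a filter, with median-of-ratios scaling, with the replicate block and without the intensity trend, 7 at 0.05, and 1 to 3 with a library left out.

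In M2, the median of the ribosomal proteins with DA in WT was 0.0623 with median-of-ratios scaling, 0.0607 with quantile normalization and 0.0445 with the trend removed, and that of the initiation factors 0.31, 0.29 and 0.28. Ribosomal protein calls with DA in DRD5-/- were 1 with median-of-ratios scaling and 0 to 1 with a library left out (1 without DRD5-/- replicate 1 or DRD5-/-+DA replicate 2 or 3), initiation factor calls 0 to 1 (1 without DRD5-/-+DA replicate 2), with ribosomal medians of -0.0761 and -0.0585 for quantile normalization and the trend. The 39 interaction calls of the ribosomal proteins became 17 (median 0.13) and 15 (0.12) under the same settings, with medians of 0.26 to 0.31 when a library was left out, and the initiation factor median was 0.26 with quantile normalization and 0.30 to 0.35 with a library left out. The single ribosomal protein call between the genotypes became 0 without a filter, with both scalings, with the compared groups alone and without the intensity trend, 2 at 0.05, and 0 to 1 with a library left out, with a median of 0.0114 under median-of-ratios scaling and of -0.051 to -0.0063 with a library left out. The 2 initiation factor calls became 1 with the compared groups alone and 0 with the trend removed, with medians of -0.02, -0.0282 and -0.0103 under the scalings and the trend. Summed levels changed by -8.06% (ribosomal proteins, DA in DRD5-/-) as a share of the library's FPKM, and those of the initiation factors by 33.6% as a share and 31.5% without the 5 members of highest FPKM in WT, and by -2.91% and -1.86% in DRD5-/-.

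With the replicate number as a block, 22 of the 24 ribosomal protein genes called in WT M1 cells kept the call, 1 of 2 between the M1 genotypes and 7 of 10 in the M1 interaction. It changed no other call of the ribosomal proteins and lost none of the initiation factors, adding 2 in the M2 interaction. Without depth, differences in members near 1 FPKM, such as Eif3j2 and Eif2b3 in M1, cannot be given a counting error.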
